A study of Mus musculus with 3 samples.

Results

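A set of 10 neuropeptide genes of the hypothalamus was followed through single cells of the mouse arcuate nucleus: Sst, Ghrh, Gal, Tac2, Tac1, Avp, Oxt, Vip, Penk and Pdyn. They were chosen by gene symbol and make up 10 of the 31253 genes that each of the 3 deposited matrices lists. The question taken here is how many transcripts of each a barcode held, which of them shared a barcode, and how much was read in cells that are not neurons. A barcode marks 1 droplet, and a unique molecular identifier (UMI) marks 1 captured transcript molecule. A barcode was counted as high for a gene when it held at least 10 of its UMIs.

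Neuropeptides are cut from larger precursors in the secretory pathway, packed into dense-core granules and released to act on G-protein-coupled receptors. A neuron that makes one of them carries a very large number of transcripts of its precursor gene, so a few cells can hold most of a tissue's transcripts. The arcuate nucleus holds neurons that release growth hormone-releasing hormone (Ghrh), somatostatin (Sst) and neurokinin B (Tac2), whereas vasopressin (Avp), oxytocin (Oxt) and vasoactive intestinal peptide (Vip) are mainly known from other hypothalamic nuclei.

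All 3 groups were male C57BL/6JRj mice, 5 to 6 weeks old per the labels, housed in groups. SC mice received standard chow for 15 days from weaning, 5-day HFHS mice ate chow for 10 days before a switch to a diet rich in fat and sugar (HFHS, 58% in the labels) for 5 days, and 15-day HFHS mice ate the HFHS diet for all 15 days. Punches of 1 mm from 6 mice of a diet were pooled, dissociated with collagenase/dispase and papain, and made into 1 droplet library with a kit that reads the 3′ end. There was therefore 1 library per diet: no difference between diets had a replicate check, cells are not replicates, and intervals in brackets are 95% counting intervals that leave out the spread between mice, pools and cells.

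Values are given as SC, 5-day and 15-day. The libraries held 7116, 6204 and 7823 barcodes with 59315940, 52735770 and 43193012 UMIs, and 4825, 4041 and 5157 barcodes were kept, with a median of 5131, 5779 and 4130 UMIs. Libraries shared 13 (SC and 5-day), 72 (SC and 15-day) and 85 (5-day and 15-day) barcode sequences before filtering and 2, 22 and 23 after it. Neuron-like barcodes, named from 12 neuron markers in clusters built without the peptide genes, numbered 360, 281 and 395, and barcodes of 12 other named classes numbered 4096, 3482 and 4236 and are called non-neuronal. In the remaining 369, 278 and 526 barcodes the marker genes gave no clear name. Among them, cluster 31 stood apart: its 25 barcodes all came from the 15-day library, and results that rest on it are given with and without it.

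The precursors of vasopressin and oxytocin are close relatives, and their genes are neighbours. In the GRCm38 assembly Avp lies on chromosome 2 from 130580620 to 130582554 on the minus strand and Oxt from 130576173 to 130577054 on the plus strand, with 3565 bases between them. Their transcripts share an identical coding stretch of 127 bases, the last 2 bases of exon 1 and 125 bases of exon 2 of 3, where both encode the neurophysin that carries the hormone. It is printed 5′ to 3′ in capitals with 20 coding bases on either side in lower case, since it bears on whether a read can be told to come from Avp or from Oxt.
Avp: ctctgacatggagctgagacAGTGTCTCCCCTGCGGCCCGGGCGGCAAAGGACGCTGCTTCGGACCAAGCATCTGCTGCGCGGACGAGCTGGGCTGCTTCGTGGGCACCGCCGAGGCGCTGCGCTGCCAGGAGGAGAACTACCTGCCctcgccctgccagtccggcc
Oxt: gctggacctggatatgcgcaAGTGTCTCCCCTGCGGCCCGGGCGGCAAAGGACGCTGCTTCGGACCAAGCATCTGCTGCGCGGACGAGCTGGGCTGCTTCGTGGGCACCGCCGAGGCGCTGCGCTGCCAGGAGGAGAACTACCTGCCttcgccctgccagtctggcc
The stretch ends 307 bases before the 3′ end of the Avp transcript and 255 bases before that of the Oxt transcript. Of the 31-base words in the last 500 bases, 20.6% in Avp (97 of 470, shared with Oxt only) and 23.0% in Oxt (108 of 470) occur in another gene, and for the other 8 genes the count was 0. Counts of Avp and Oxt in 1 barcode are therefore uncertain as far as reads fell on the stretch.

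The other genes lie apart from each other in GRCm38: Sst on chromosome 16 (23889573 to 23890958, minus), Ghrh on 2 (157329497 to 157347506, minus), Gal on 19 (3409915 to 3414544, minus), Tac2 on 10 (127724478 to 127731768, plus) and Tac1 on 6 (7554879 to 7565834, plus). Vip lies on 10 (5639218 to 5647617, plus), Penk on 4 (4133531 to 4138819, minus) and Pdyn on 2 (129686565 to 129699844, minus). All 10 are protein-coding.

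High barcodes were few, and the share of a gene's kept UMIs that they held differed between genes. For Sst it was 81.3%, 81.2% and 73.7%, whereas for Ghrh it was 29.8%, 47.5% and 30.3% and for Pdyn 9.21%, 0% and 18.8%. Avp had 23.4% in the SC, 69.9% in the 5-day and 61.5% in the 15-day library. At least 10 UMIs of any of the 10 genes were found in 145 SC, 105 5-day and 127 15-day barcodes, which is 3.01%, 2.60% and 2.46% of those kept. Without cluster 31 the 15-day number was 102 (1.99%). In the SC library the highest barcode held from 11 UMIs for Pdyn to 1089 for Sst among the 9 genes with a high barcode.

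**Figure D1:**
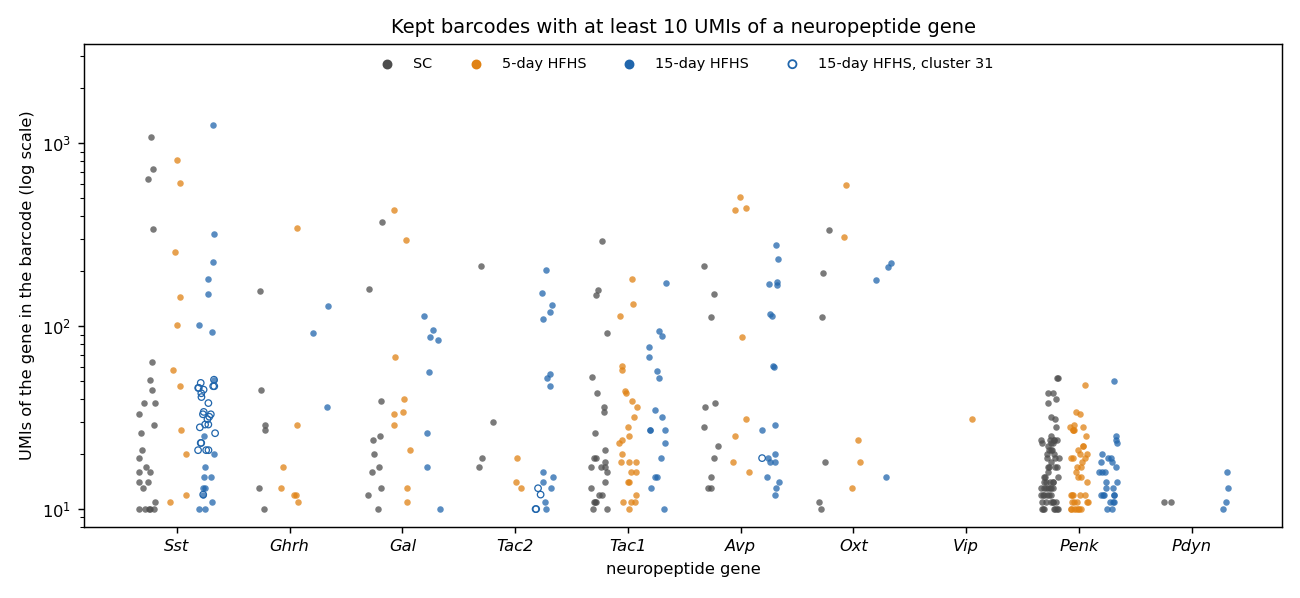
UMIs of each gene (vertical axis, log scale) in every kept barcode with at least 10 of them, 1 point per barcode, by gene and library; open circles are cluster 31. Sst reached 1258 UMIs in 1 barcode, while Penk had the most barcodes, 136, and none above 52.

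Somatostatin, which inhibits growth hormone release, had the highest count of the 10 genes in a kept barcode, below the 1495 Avp UMIs of an SC barcode that the doublet filter removed. Sst was high in 26 SC, 11 5-day and 44 15-day barcodes. In the SC library they held from 10 to 1089 UMIs with a median of 20, in the 5-day library from 11 to 813 with a median of 58, and in the 15-day library from 10 to 1258 with a median of 31.5. The 3 ranges overlapped almost entirely, and 1 barcode in each library held 26.8%, 31.5% and 27.4% of all kept Sst UMIs. Of the 81 barcodes 50 were neuron-like, 3 non-neuronal and 28 without a named class, 25 of these in cluster 31. Without cluster 31 the 15-day library had 19 high barcodes with a median of 20.

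Neuron-like Sst barcodes carried genes of inhibitory neurons. Gad2, an enzyme of GABA synthesis, had a UMI in 42 of 50 (84%, against 55.7% of the other neuron-like barcodes). Slc32a1, the vesicular GABA transporter, had one in 39 of 50 (78%, against 34.4%), and Slc17a6, a vesicular glutamate transporter, in 15 of 50 (30%, against 28.2%). Otp, a transcription factor of hypothalamic peptide neurons, was found in 37 of 50 (74%, against 21.5% of the other 986 neuron-like barcodes), and the somatostatin receptor gene Sstr2 in 22 of 50 (44%, against 5.68%). Depth differed between these sets, with a median of 25164 UMIs in Sst barcodes and 4952 in the others. In CPM, the UMIs of a gene scaled to the same total of UMIs in every set of barcodes, Sstr2 stood at 29.97 in Sst barcodes and 7.34 in the others, Otp at 201 and 107, and Gad2 at 399 and 344. Slc32a1 stood at 131 and 98.9, and Slc17a6 at 98.0 and 129.

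The 25 barcodes of cluster 31 had Sst at 12 to 51 UMIs, none of them at the level of the highest neuron-like barcodes. Each held between 4 and 8 of the 10 peptide genes (median 7), whereas the 15 neuron-like 15-day barcodes high for Sst held between 1 and 3 (median 2). Neuron-like barcodes high for Sst held between 1 and 9 (median 3) in the SC library and between 1 and 7 (median 2) in the 5-day library. The numbers in cluster 31 lie within the range of the SC library, but the SC median lies below the lowest of them. Those SC barcodes had depths of 1081 to 142492 UMIs. UMIs of the other 9 genes summed to 11 to 38 per barcode in cluster 31 and to 0 to 7 in the neuron-like 15-day ones. Every cluster 31 barcode also held UMIs of oligodendrocyte markers (336 to 691), neuron markers (83 to 184), microglia markers (65 to 143), astrocyte markers (48 to 130) and ependymal markers (44 to 93). Their depth was 23127 to 40762 UMIs, with 0.674% to 1.31% mitochondrial, and their doublet scores reached at most 0.0513. The part of mixed contents in these Sst counts was not tested.

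**Figure D2:**
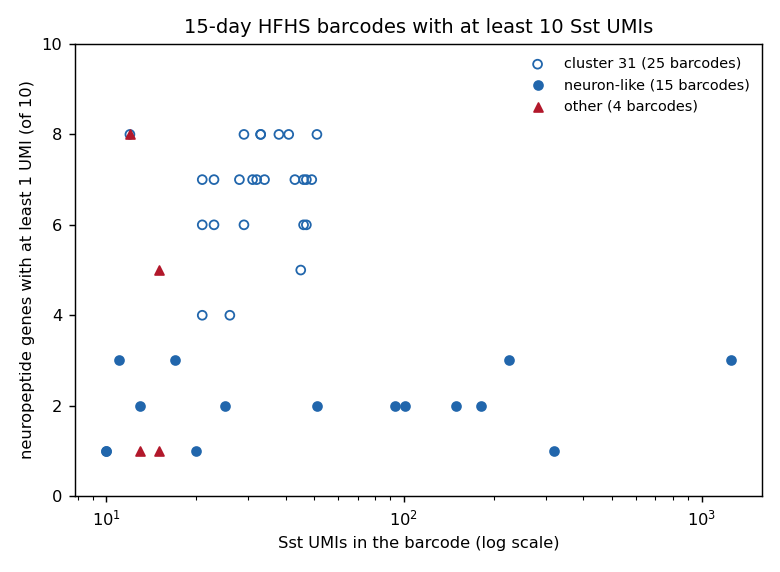
Sst UMIs (horizontal axis, log scale) against the number of the 10 peptide genes with at least 1 UMI, 1 point per 15-day barcode with at least 10 Sst UMIs. Open circles (cluster 31, 25 barcodes) lie at 4 to 8 genes, filled circles (neuron-like, 15 barcodes) at 1 to 3, and triangles are the other 4 barcodes.

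Growth hormone-releasing hormone drives growth hormone secretion, and its high barcodes were few. Ghrh was high in 6 SC barcodes (10 to 155 UMIs, median 28), 7 5-day barcodes (11 to 344, median 13) and 3 15-day barcodes (36, 92 and 129). Of these 16 barcodes 13 were neuron-like, 2 ependymal-like and 1 tanycyte-like. Galanin, an inhibitory peptide made by many hypothalamic neurons, was high in 11 SC (10 to 372, median 20), 10 5-day (11 to 433, median 33.5) and 8 15-day barcodes (10 to 114, median 70). All 29 of them were neuron-like. The 15-day library had the lowest maximum for both genes and the highest median.

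Ghrh and Gal formed the most frequent pair. They were both high in 5 SC, 4 5-day and 3 15-day barcodes, which is 12 of the 16 Ghrh barcodes (75%) and 12 of the 29 Gal barcodes (41.4%). In the strongest SC barcode Ghrh had 155 UMIs, Gal 372 and Penk 52, in the strongest 5-day barcode 344, 433 and 33, and in the strongest 15-day barcode Ghrh had 129, Gal 84 and Penk 0. Penk was high beside both in 5 barcodes (2, 2 and 1). Every neuron-like Ghrh barcode had at least 1 Gal UMI (13 of 13, against 13.2% of the other 1023) and 11 of 13 had Penk (against 8.80%). All 12 pair barcodes were neuron-like and none held a Tac2 UMI. Of them 3 were shallow, with 1174, 1394 and 2242 UMIs, and held no Meg3.

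Ghrh barcodes carried genes of GABA and catecholamine neurons. Th, tyrosine hydroxylase, had a UMI in 9 of 13 (69.2%, against 8.90% of the others), Gsx1, a transcription factor of developing Ghrh neurons, in 8 of 13 (61.5%, against 2.84%), Cartpt in 12 of 13 and Slc32a1 in 10 of 13. Median depth was 18548 UMIs in Ghrh barcodes and 5199 in the others. Scaled to depth, Gsx1 stood at 84.1 CPM in Ghrh barcodes and 3.36 in the others, Th at 162 and 27.6, and Gal at 4446 and 88.1. Gal barcodes in turn had Th in 14 of 29 (48.3%, against 8.54%), at 73.4 and 27.6 CPM and median depths of 29050 and 5053 UMIs.

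Tac2 encodes neurokinin B and Pdyn encodes dynorphin, which a group of arcuate neurons makes together with kisspeptin (Kiss1). Tac2 was high in 4 SC barcodes (17 to 214 UMIs, median 24.5), 3 5-day barcodes (13, 14 and 19) and 18 15-day barcodes (10 to 203, median 15.5, or 14 barcodes with a median of 49.5 without cluster 31). No kept 5-day barcode came near the highest of the other libraries. Among the deposited barcodes the 5-day maximum was 385, in a barcode that the doublet filter removed. Of the 25 barcodes 15 were neuron-like, 1 tanycyte-like and 9 without a named class, 5 of these in cluster 18, where 4 oligodendrocyte markers and 3 neuron markers stood among the leading genes.

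Pdyn was low everywhere, high in 2 SC barcodes (11 UMIs each), no 5-day barcode and 4 15-day barcodes (10, 11, 13 and 16), where 0 of 4041 5-day barcodes allows a share of up to 0.0742% when the limit is set at 3 counts and of up to 0.0912% by the exact interval. Those 4 15-day barcodes were also high for Tac2, with 55, 52, 130 and 119 UMIs, and make up 4 of 6 Pdyn barcodes (66.7%) and 4 of 25 Tac2 barcodes (16%). At 1 UMI or more, Pdyn was found in 13 of 15 neuron-like Tac2 barcodes (86.7%, against 13.2% of the other 1021). Kiss1, the third peptide of these neurons, had no UMI in any neuron-like or non-neuronal barcode of the 3 libraries. Gal was high beside Tac2 in 3 15-day barcodes.

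Tac2 barcodes held genes of steroid receptors and of glutamate neurons, and held genes of GABA neurons at lower CPM than the other neuron-like barcodes. Slc17a6, the vesicular glutamate transporter, had a UMI in 13 of 15 neuron-like Tac2 barcodes (86.7%, against 27.4% of the others). Esr1 and Pgr, the oestrogen and progesterone receptors, had one in 12 each (80%, against 19.9% and 30.5%) and Nr5a2 in 11 (73.3%, against 11.5%). Tacr3, the receptor of neurokinin B, was found in 5 of 15 (33.3%, against 2.74% of the others). With median depths of 17433 UMIs in Tac2 barcodes and 5128 in the others, the CPM levels were 27.9 and 2.72 for Tacr3 and 346 and 118 for Slc17a6. Gad1 and Gad2, enzymes of GABA synthesis, had a UMI in 11 of 15 (73.3%, against 49.1%) and 7 of 15 (46.7%, against 57.2%). At 126 against 199 CPM and 226 against 355 CPM both were lower in Tac2 barcodes than in the others. Slc32a1, the vesicular GABA transporter, was found in 4 of 15 (26.7%, against 36.6%), at 61.4 against 104 CPM. Genes whose level across neuron-like barcodes was most like Tac2 were Greb1, Sox14 and Olfm2, with Pearson's r of 0.31, 0.47 and 0.40 over the 395 15-day barcodes, the only library with at least 5 neuron-like high barcodes.

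Tac1 encodes substance P and neurokinin A. It was high in 26 SC (10 to 292 UMIs, median 17.5), 27 5-day (10 to 181, median 23) and 18 15-day barcodes (10 to 172, median 29.5), with ranges that overlapped. Of the 71 barcodes 48 were neuron-like, 45 of them in 1 cluster led by Snhg11 and Meg3, and 23 were not: 22 were oligodendrocyte-like and 1 COP-like (a committed oligodendrocyte precursor). Neuron-like Tac1 barcodes held Slc17a6 in 44 of 48 (91.7%, against 25.2%) and the transcription factor gene Foxp2 in 40 of 48 (83.3%, against 11.8%). Of the GABA enzymes, Gad2 was found in 29 of 48 (60.4%, against 56.9%) at 179 CPM against 369 in the others, and Gad1 in 9 of 48 (18.8%, against 50.9%) at 44.7 CPM against 212. Adcyap1, which encodes the peptide PACAP, was present in 45 of 48 (93.8%, against 12.8%), and stood at 399 CPM against 36.2 in the others, whose median depth of 4870 UMIs was below the 15924 of Tac1 barcodes. Adcyap1 was also the gene most like Tac1 over neuron-like barcodes, with r of 0.61, 0.54 and 0.56 in the SC, 5-day and 15-day libraries, followed by Cnr1 (0.41, 0.48 and 0.48) and Glra3 (0.42, 0.46 and 0.49). These correlations are over barcodes of 1 library each, whose depth differed between barcodes, and describe likeness only.

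Vasopressin regulates water retention, and in the brain it also marks neurons of the circadian clock. Avp was high in 11 SC (13 to 213 UMIs, median 28), 8 5-day (16 to 508, median 59) and 20 15-day barcodes (12 to 277, median 28). Of these 39 barcodes 33 were neuron-like, and 20 of the 39 lay in cluster 16 (2, 5 and 13), a neuron-like cluster of 9, 9 and 32 barcodes led by Rgs16 and Scg2. Neuron-like Avp barcodes held Rora in 27 of 33 (81.8%, against 31.8%), Lhx1 in 14 of 33 (42.4%, against 11.7%) and Vipr2, a receptor of vasoactive intestinal peptide, in 13 of 33 (39.4%, against 2.79%). By library Vipr2 was found in 2 of 10 SC, 1 of 6 5-day and 10 of 17 15-day barcodes, so mostly in the 15-day library. Sim1 and Otp, factors of paraventricular peptide neurons, were found in 7 of 33 (21.2%, against 0.798%) and 10 of 33 (30.3%, against 23.8%). Depth was 9858 UMIs at the median in Avp barcodes and 5144 in the others, and Vipr2 stood at 60.04 and 3.096 CPM. Sim1 stood at 25.5 and 1.26 CPM, whereas Otp was lower in Avp barcodes, at 52.8 against 122. Of the 3 genes most like Avp over neuron-like barcodes, Rorb was the one with r of at least 0.3 in each library (0.35, 0.39 and 0.39). Rgs16 had the highest median r, with 0.29, 0.51 and 0.62 in the SC, 5-day and 15-day libraries.

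Filtering took a large part of Avp away, and unequally. The kept barcodes held 34.1% of the deposited Avp UMIs in the SC library (2826 of 8288), 56.9% in the 5-day library (2233 of 3925) and 69.8% in the 15-day library (2564 of 3675). In the SC library 15 of the 30 high deposited barcodes were over the mitochondrial limit, and the highest of all, with 1495 UMIs, was removed by its doublet score.

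Oxytocin, which acts in milk release and social behaviour, had high counts in few and unusual barcodes. Oxt was high in 6 SC (10 to 336 UMIs, median 65.5), 5 5-day (13 to 595, median 24) and 4 15-day barcodes (15 to 222, median 196). Of the 15 barcodes 8 were neuron-like, 5 non-neuronal and 2 without a named class. Fewer than 1000 genes were detected in 8 of the 15, the long noncoding neuronal RNA Meg3 was at 0 in 9, and 3 others, all from the 5-day library, had over 10000 genes. The highest 5-day barcode, with 595 Oxt and 18 Avp UMIs, was COP-like. Avp and Oxt were both high in 4 kept barcodes (1, 1 and 2) and 8 deposited ones. The neuron-like 3 of them had 13 Avp and 195 Oxt UMIs (SC), and 114 and 180, and 12 and 212 (15-day), at depths of 1543, 2154 and 1798 UMIs. Their gene counts were low and the shared coding stretch shown above applies to them.

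Vip, the peptide that Vipr2 binds, was high in 1 barcode of the 5-day library, with 31 UMIs in a neuron-like barcode of 1604 UMIs that also held Lhx1 and Gad2. The SC library had no Vip UMI in any kept barcode and the 15-day library had 3. No high Vip barcode among 4825 SC and 5157 15-day barcodes allows shares of up to 0.0622% and 0.0582% when the limit is set at 3 counts, and of up to 0.0764% and 0.0715% by the exact interval.

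Penk, which encodes the enkephalins, was the exception in cell type. It was high in 67 SC (10 to 52 UMIs, median 15), 42 5-day (10 to 48, median 16.5) and 27 15-day barcodes (10 to 50, median 14), and 129 of these 136 were tanycyte-like (64, 40 and 25), not neuron-like (3, 2 and 2). Tanycytes are the glia that line the floor of the third ventricle. High Penk barcodes were deep, with a median of 54307, 61112 and 54279 UMIs, against 12406, 13659 and 7496 over all tanycyte-like barcodes. The part of depth in the number of high barcodes per library was not tested. No barcode held more than 52 UMIs and the single highest held 2.28%, 3.25% and 3.70% of the library's Penk UMIs, so the gene was spread over many cells. Of the 129, 99 lay in cluster 10, led by Crym and Col25a1, which had Penk at 181, 152 and 163 CPM and in 60.8%, 53.5% and 53.1% of barcodes.

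Of the 45 possible pairs 15 were seen in at least 1 kept barcode (14 without cluster 31), 17 counting all deposited barcodes, and 28 in none. At least 2 genes were high together in 11 of 145 SC barcodes with any, 7 of 105 5-day and 18 of 127 15-day barcodes (13 of 102 without cluster 31). Sst and Tac2 met in 5 barcodes, 4 of them in cluster 31. Sst and Gal met in 2 5-day barcodes (255 and 33 UMIs, and 813 and 29), and Sst and Tac1 in 2 SC barcodes. Scores of a doublet caller were 0.0513, 0.0493 and 0.0404 at the median of kept pair barcodes, against 0.0409, 0.0473 and 0.0356 over neuron-like barcodes, and reached at most 0.0748, 0.0586 and 0.0651. The doublet filter had already removed the highest scores, so these maxima were bounded by it. Among the removed were pair barcodes with scores of 0.2512 in the SC library and 0.1633 and 0.1311 in the 5-day library. Whether a pair barcode holds 1 cell was not tested.

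**Figure D3:**
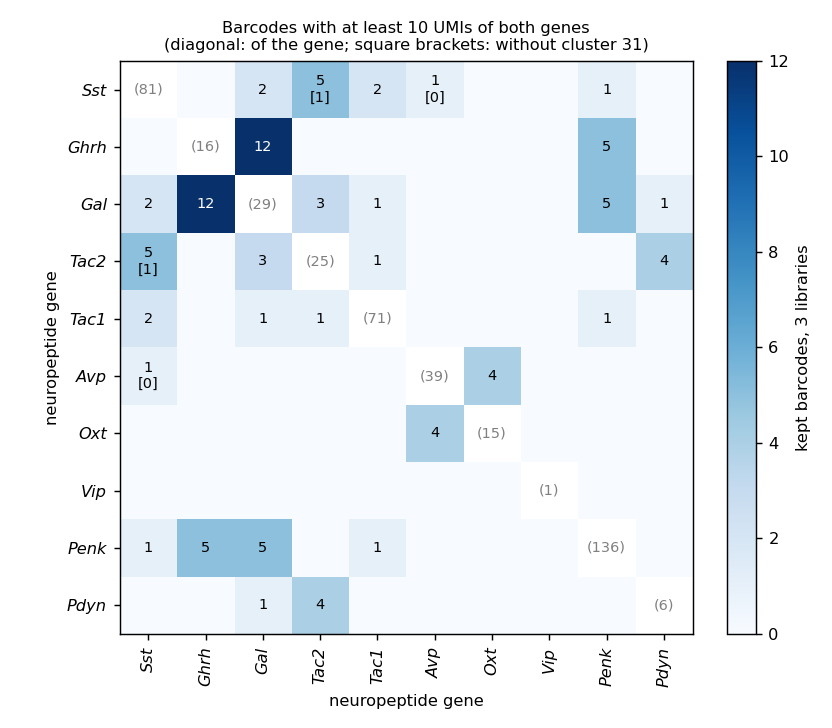
Number of kept barcodes of the 3 libraries with at least 10 UMIs of both genes, with the number for a gene alone on the diagonal and the number without cluster 31 in square brackets. Ghrh with Gal (12) stands above every other pair, followed by Ghrh with Penk, Gal with Penk and Sst with Tac2 at 5 each.

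CPM levels, summed over a class and library, placed Sst highest among neuron-like barcodes with 780 [754 to 807] in the SC, 495 [474 to 516] in the 5-day and 742 [714 to 771] in the 15-day library. These are UMIs at the 3′ end of transcripts and so do not scale with transcript length. Ordered by the median over the libraries, Avp (191, 344 and 441) came next, then Tac1 (270, 190 and 245), Gal (179, 241 and 161), Oxt (129, 89.1 and 175), Ghrh (73.8, 104 and 82.7), Tac2 (71.3, 17.3 and 254), Pdyn (32.1, 19.5 and 41.8) and Penk (31.5, 23.3 and 33.2). From Avp to Penk the ranges over the 3 libraries overlapped between all neighbours in this order, and the range of Tac2 overlapped those of all the others from Avp to Penk, so these places are not separate. The lowest level of Sst was above the highest of Avp. Vip stood at 0, 8.74 and 0.

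In non-neuronal barcodes the genes behaved in different ways. RNA set free in dissociation is captured in droplets of every cell type, so a like number of UMIs per droplet in all types is read as background. Avp followed that pattern. Leaving out high barcodes, 9 non-neuronal classes of the SC library had 37.7 to 49.1 Avp UMIs per 100 barcodes, although their median depth ran from 2626 to 14592 UMIs. In the 5-day library the range was 11.9 to 22.8 and in the 15-day library 9.57 to 19.01. Sst stood at 10.3 to 17.3, 7.495 to 18.1 and 13.01 to 19.7 UMIs per 100 barcodes, Gal at 2.36 to 5.49, 1.63 to 5.01 and 2.61 to 8.52, and Tac2 below 3 in every class. Oxt lay at 2.56 to 10.9, 15.4 to 26 and 2.11 to 6.96, so each of the 9 classes in the 5-day library was above each class in the other libraries. Accordingly Oxt UMIs per Avp UMI had a median over the 9 classes of 0.145 in the SC, 1.33 in the 5-day and 0.240 in the 15-day library. The ranges over classes were 0.0588 to 0.274, 0.750 to 1.74 and 0.111 to 0.727, and those of the 5-day library did not overlap the others.

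Ghrh, Tac1, Penk and, at low counts, Pdyn did not follow that pattern. Pdyn was highest in ependymal-like barcodes, with 4.93, 5.70 and 4.82 UMIs per 100 barcodes against a median over the 9 classes of 1.92, 1.95 and 1.75. Within that class the deep cluster 11 had 13.56, 17.5 and 10.68, at median depths of 20302, 20372 and 9829 UMIs. The shallow cluster 3 had 2.314, 1.254 and 1.198, at 1872, 1888 and 1435 UMIs. The part of depth in this Pdyn difference was not tested. Penk stood at 130 [124 to 135], 114 [107 to 120] and 121 [113 to 128] CPM in tanycyte-like barcodes, and at 1.83, 0.805 and 1.64 in oligodendrocyte-like barcodes. Median depth was 12406, 13659 and 7496 UMIs in tanycyte-like and 14592, 16012 and 9673 in oligodendrocyte-like barcodes. At least 1 Penk UMI was seen in 44.98%, 45.8% and 37.6% of tanycyte-like and in 2.13%, 1.39% and 1.81% of oligodendrocyte-like barcodes. Tac1 stood at 105, 101 and 96.9 CPM in precursors of oligodendrocytes (OPC-like), with a UMI in 43.1%, 47.3% and 35.6% of them but none with 10, whereas 5.97%, 3.33% and 3.87% of the deeper tanycyte-like barcodes had one. Median depth of OPC-like barcodes was 6800, 8352 and 5261 UMIs. In oligodendrocyte-like barcodes Tac1 was at 25.4, 59.2 and 56.4 CPM, and 19 of the 22 high barcodes lay in cluster 14, a cluster of 34, 21 and 83 barcodes led by Mag and Opalin where it reached 89.2, 333 and 154. Ghrh was at 40.8 [35.0 to 47.3], 48.1 [42.0 to 54.7] and 44.6 [36.0 to 54.6] CPM in ependymal-like and at 19.98, 15.5 and 19.7 in tanycyte-like barcodes, against 0 to 6.97 in oligodendrocyte-like and COP-like ones. A Ghrh UMI was seen in 20.7%, 23.01% and 20.7% of ependymal-like barcodes, whose median depth was 2626, 2648 and 2476 UMIs, and in 2.13%, 1.95% and 6.80% of the deeper oligodendrocyte-like ones.

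The order of these classes was the same at equal depth. With each barcode thinned to 1000 UMIs, leaving out shallower ones (6 to 29 tanycyte-like, 17 to 22 OPC-like, 40 to 61 ependymal-like and 0 to 2 oligodendrocyte-like per library), Penk had a UMI in 10.7%, 8.33% and 8.29% of tanycyte-like barcodes, against 0.213%, 0% (0 of 357, with an exact upper bound of 1.03%) and 0.227% of oligodendrocyte-like ones. Ghrh had one in 5.16%, 5.41% and 5.22% of ependymal-like barcodes, against 0.213%, 0% and 0.907% of oligodendrocyte-like ones. That comparison does not set Ghrh apart from background, since the original depth of these classes differed. Sst too had one in 6.50%, 2.58% and 6.09% of ependymal-like and 0.426%, 0.560% and 3.18% of oligodendrocyte-like barcodes. In astrocyte-like barcodes, with median depths of 2844, 3828 and 2691 UMIs, Ghrh had one in 1.60%, 0.515% and 1.99%. Tac1 had one in 9.46%, 8.17% and 7.49% of OPC-like barcodes, against 0.148%, 0.451% and 0.846% of tanycyte-like ones. Thinned, Avp was detected in 11.04%, 6.85% and 8.90% of neuron-like barcodes and in 8.35%, 3.01% and 3.87% of non-neuronal ones, so in the SC library both shares were close. Left out as too shallow were 43, 62 and 69 neuron-like and 190, 157 and 202 non-neuronal barcodes. Unthinned shares were 33.3%, 22.4% and 16.2% of neuron-like barcodes and 31.96%, 13.4% and 13.6% of non-neuronal ones.

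**Figure D4:**
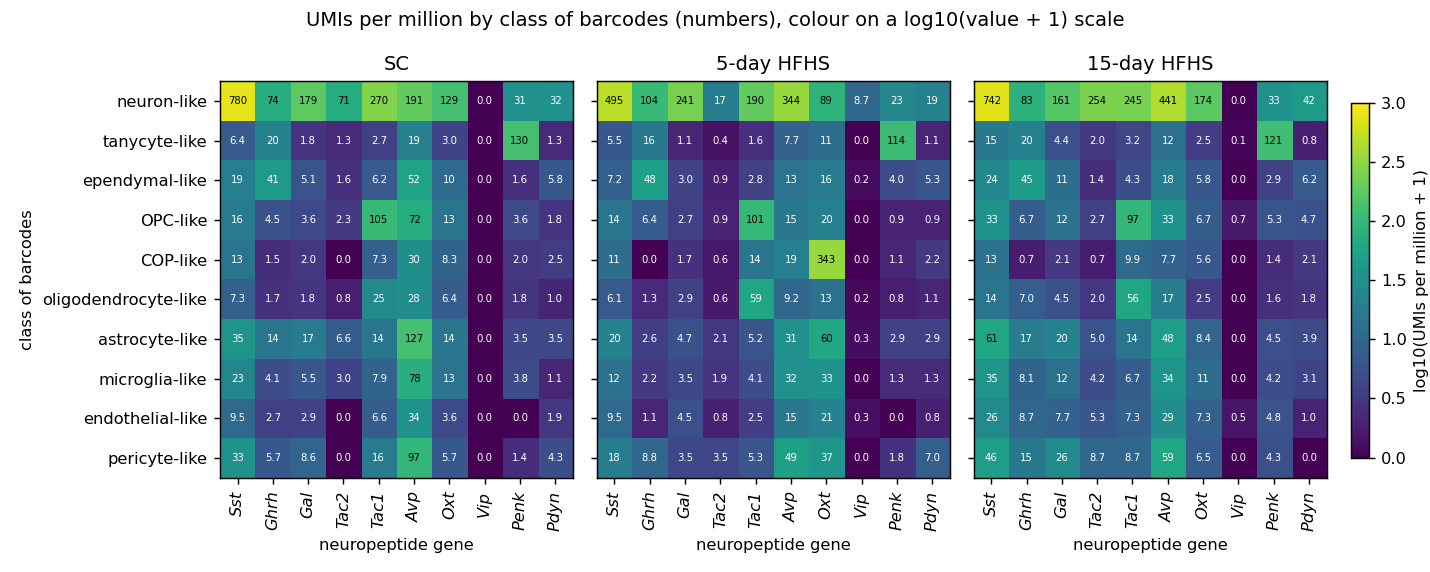
CPM of the 10 genes (columns) in neuron-like barcodes and 9 other classes (rows) in the SC, 5-day and 15-day libraries, with colour on a log10(value + 1) scale. Penk is highest in tanycyte-like, Tac1 second in OPC-like and Ghrh second in ependymal-like barcodes in each library; the Oxt value of 343 in 5-day COP-like barcodes comes from 1 barcode with 595 UMIs.

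The diet comparisons asked whether these levels differed after 5 or 15 days on the HFHS diet. The size rule asked for a sum of 100 UMIs or more over the pair of libraries and for levels that differed 1.5-fold or more, and 9 of the 10 genes could be judged (Vip had too few UMIs). In neuron-like barcodes of the 5-day library 4 of 9 were past it, 1 higher and 3 lower. The background over 9923 genes was 8.80% either way, 2.90% higher and 5.90% lower, and the median log2 ratio was -0.14 over all these genes and -0.51 over the 9. With 9 genes that few barcodes dominate, this share is not set against the background as a result about the genes.

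Tac2 was lower in the 5-day library, at 17.3 against 71.3 CPM in the SC library (log2 ratio -2.05 [-2.43 to -1.68]). Of the SC UMIs 67.9% came from 1 barcode, and with the removed doublets put back the ratio was 0.49, because the 5-day barcode of 385 UMIs returned. Sst stood at 495 in the 5-day library against 780 (log2 ratio -0.66 [-0.73 to -0.58]), with a range of -1.02 to -0.28 over 12 other settings. The Sst call was kept in 10 of them and lost under median-of-ratios scaling and per barcode without scaling to depth. In each library 5 barcodes held most of these Sst UMIs, 86.9% in the 5-day and 82.8% in the SC library. High neuron-like Sst barcodes numbered 10 in the 5-day and 25 in the SC library. Pdyn stood at 19.5 against 32.1 (-0.72), with no barcode above 11 UMIs in either library. Its ratio was 0.73 when thinned, where only 7 SC and 7 5-day barcodes held a UMI. Avp was higher at 344 against 191 (0.85 [0.72 to 0.97]), with 93.7% of the 5-day UMIs and 65.1% of the SC UMIs in 5 barcodes each. Without those barcodes its ratio was -1.67, and with the doublets put back -0.54, since the SC barcode of 1495 UMIs returned. The 5-day neuron-like class had 6 high barcodes for Avp of 281 and the SC class 10 of 360.

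In the 15-day library 2 of 9 genes were past the size rule in neuron-like barcodes, both higher, with a background over 9574 genes of 19.8% either way, 5.13% higher and 14.7% lower, and medians of -0.17 over all genes and 0.16 over the 9. Tac2 stood at 254 CPM against 71.3 in the SC library (1.83 [1.65 to 2.02]), from 9 high barcodes of 395 against 3 of 360. The call held in 11 of 12 other settings, with ratios from 1.41 to 3.11. It was not made when barcodes were thinned, where the UMIs of both libraries summed to less than the size rule asks for. Thinned levels were 202.5 CPM in the 15-day and 53.63 CPM in the SC library, so the 15-day level was again higher. Avp stood at 441 against 191 (1.20 [1.08 to 1.33]), with 17 high barcodes against 10. Cluster 16, which held 1355 of the 1594 15-day UMIs and 260 of the 846 SC UMIs, had 32 barcodes in the 15-day library and 9 in the SC library, so a share of this class and a level within it cannot be told apart. With the doublets put back the Avp ratio was -0.05, and in thinned barcodes it was 0.36.

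In non-neuronal barcodes the 5-day library had 3 of 9 past the rule, against a background of 1.35% (0.977% higher, 0.374% lower; 14431 genes). Oxt was higher, at 36.3 against 6.72 CPM (2.43 [2.25 to 2.62]), with 43.7% of the 5-day UMIs from 1 barcode. Avp was lower, at 15.3 against 41.8 (-1.45 [-1.59 to -1.31]), with at most 3.14% from 1 barcode. Both calls were kept in all 10 other settings, with Oxt between 1.08 and 2.57 and Avp between -1.53 and -1.25. Tac2 was at 0.986 against 1.55 (-0.65), kept in 2 of 10. The median log2 ratio was 0.0057 over all genes and -0.43 over the 9. Oxt, Avp and Tac2 are among the genes not set apart above from free RNA in these classes. The share of 3 of 9 is therefore not set against the background as a result about the genes. The part of free RNA in these ratios was not tested.

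At 15 days 4 of 9 were past the rule in non-neuronal barcodes, against 6.48% of 14330 genes (4.56% higher, 1.91% lower), with a median log2 ratio of 0.26 over the 9 and -0.01 over all genes. Gal was at 8.90 against 3.70 CPM (1.27 [0.98 to 1.56]), Sst at 26.4 against 12.5 (1.08 [0.92 to 1.24]) and Tac2 at 3.03 against 1.55 (0.97). Avp was lower, at 23.7 against 41.8 (-0.82 [-0.95 to -0.69]), and -0.07 where classes were drawn by marker UMIs without clustering. The Sst and Tac2 calls were lost per barcode without scaling to depth, where the 15-day library had a median of 4312 UMIs against 5612, and all 3 higher calls were lost in thinned barcodes. Penk was not past the rule in either comparison, at 34.8 in the 5-day and 38.1 in the 15-day library against 48.3 (-0.47 and -0.34). Ghrh and Tac1 were not past it either, with ratios of -0.18 and 0.37 at 5 days and 0.14 and 0.48 at 15 days. Both comparisons use the same SC library. Gal, Sst, Tac2 and Avp are also among the genes not set apart from free RNA. The share of 4 of 9 is likewise not set against the background as a result about the genes, and the part of free RNA was not tested.

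**Figure D5:**
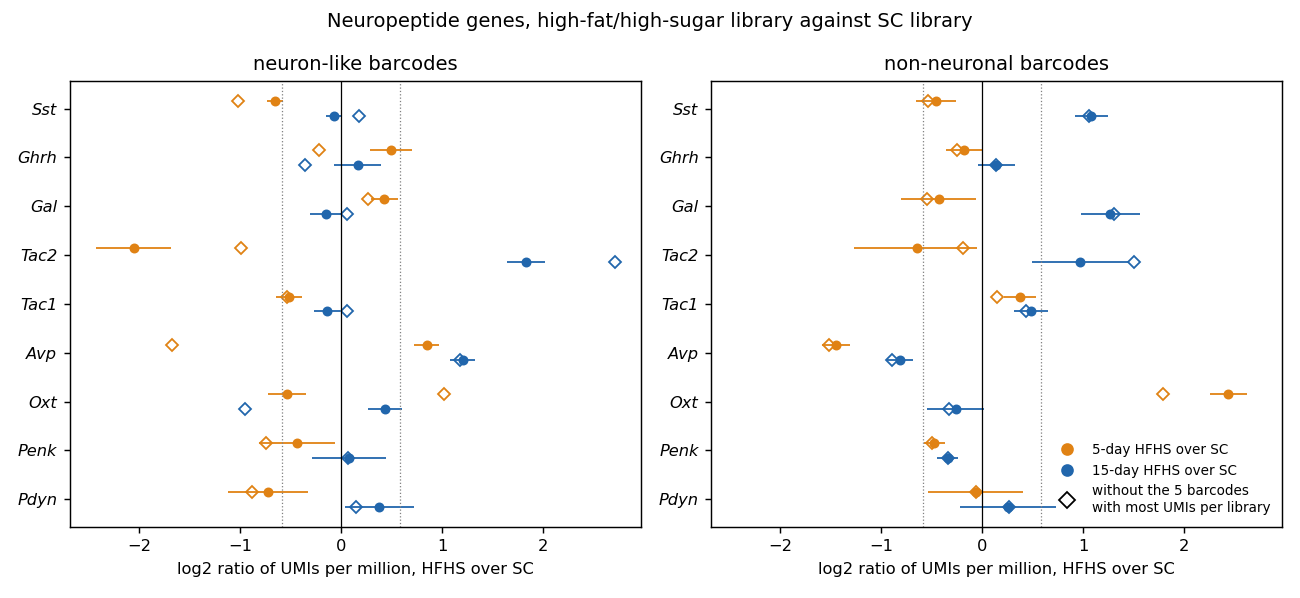
Log2 ratio of the CPM of the 5-day (orange) and the 15-day (blue) HFHS library over the SC library for 9 genes, in neuron-like (left) and non-neuronal barcodes (right), with 95% counting intervals; dotted lines mark 1.5-fold and open diamonds leave out the 5 barcodes with most UMIs of the gene in each library. Neuron-like Avp at 5 days lies at 0.85 with these barcodes and at -1.67 without them, whereas non-neuronal Avp lies at -1.45 and keeps its side.

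Receptors and processing genes gave the setting of these peptides in neuron-like barcodes. All 11 genes of processing and granules were detected in each library, and 10 were higher there than in non-neuronal barcodes in each library, led by Pcsk1n (2094, 3665 and 3251 CPM) and Scg2 (866, 830 and 1387). Of 21 receptor genes 14 were detected in each library and 2 in none (Tacr2 and Avpr1b), and only Oprk1, the dynorphin receptor, was above 10 CPM in each (75.8, 53.1 and 46.5). Of 18 other neuropeptide genes 12 were detected in each library and 3 in none (Kiss1, Tac4 and Pmch).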

How the data were processed

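Per the submitters' processing notes, Cell Ranger, SAMtools and Scanpy 1.4.4 were used with the GRCm38 build, and per the file headers the matrices come from software version 3.1.0. The deposited values are raw UMI counts per gene and barcode. The annotation release is not given in the sources used here.

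Barcodes with at least 500 genes and at most 20% mitochondrial UMIs were retained. Scrublet's automatic cut marked no SC barcode, so the highest scores, 0.8% per 1000 deposited barcodes, were removed (291, 211 and 344 barcodes). Scanpy 1.11.5 clustered all libraries together (3000 variable genes without the peptide genes, 40 components, 15 neighbours, Leiden resolution 1), and a cluster was named from at least 3 markers among its 50 leading genes.

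Diets were not tested against each other, as each had a single library. Counts have exact Poisson intervals, shares exact Clopper-Pearson intervals and ratios conditional binomial intervals. The intervals cover counting error only. All 10 genes are named. Partners are the up to 4 genes per list found in most high barcodes, plus textbook partners, and likeness needs r of at least 0.3 in each library with at least 5 high neuron-like barcodes. The genes and lists were chosen with earlier results of these data known. Code was tested on simulated data. Sequences come from GENCODE transcripts of GRCm38. Some partner genes that this rule names are not reported here.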

Additional observations from a re-analysis of the deposited data

Results flagged for a closer look

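With the settings used, Avp had ratios of opposite sign in neuron-like and non-neuronal barcodes of the same libraries. Its log2 ratio of the 5-day HFHS over the SC library was 0.8466 in neuron-like and -1.448 in non-neuronal barcodes, and that of the 15-day HFHS library was 1.203 and -0.8185. The sign in neuron-like barcodes was not stable: at 5 days the ratio was -1.671 without the 5 barcodes with most UMIs, -0.5404 with the removed doublets put back and -0.3209 in thinned barcodes, and at 15 days it was -0.05401 with the doublets put back. The difference between the classes was not tested, since each diet has 1 library.

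In the 15-day library 16 deposited barcodes held at least 10 Sst UMIs (11 to 22) with 48.5% to 75.8% of their UMIs from pancreatic islet genes such as Ins2, and 1 of the 16 was kept. The SC and 5-day libraries had 0 such barcodes. In the SC library 15 barcodes over the mitochondrial limit held at least 10 Avp UMIs and were not used.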

How the results depend on the processing

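No paired analysis was possible because there was 1 library per diet and no replicate numbers. Of the 9 genes, the number past the size rule in neuron-like barcodes at 5 days (4) was 2 in thinned barcodes, 1 with doublets put back and 1 under a 2-fold rule. At 15 days (2) it was 0 thinned, 5 with a mitochondrial limit of 10% and 1 with doublets put back, and in non-neuronal barcodes at 15 days (4) it was 1 thinned and 2 under the 2-fold rule. The log2 ratio of Avp in neuron-like barcodes turned to -0.3209 thinned, -0.5404 with doublets put back and -1.671 without the 5 barcodes with most UMIs at 5 days, and to -0.05401 with doublets put back at 15 days. That of Pdyn turned to 0.7262 thinned and that of Tac2 to 0.4882 with doublets put back, both at 5 days. The thinned Pdyn value rests on 7 SC and 7 5-day barcodes with a UMI. Putting doublets back returns an SC barcode with 1495 Avp UMIs and a 5-day barcode with 385 Tac2 UMIs. For changes other than these and the thinned Tac2 call at 15 days, the cause was not tested.

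Barcodes high for any gene (145 SC, 105 5-day and 127 15-day) numbered 278, 200 and 250 at 5 UMIs, 65, 53 and 77 at 20 UMIs, and 238, 164 and 197 over every deposited barcode. Barcodes high for a pair (11, 7 and 18) numbered 23, 21 and 42 at 5 UMIs and 3, 4 and 7 at 20 UMIs. A rule of 10 UMIs per 10000 gave 6 for SC and 8 for 15-day HFHS, and every deposited barcode gave 12 in the 5-day library. The summed level of the 10 genes in non-neuronal barcodes (144.2, 131.6 and 142.8 CPM) was 161, 137.6 and 232.7 with classes drawn by marker UMIs, 114.9, 88.6 and 125.2 without high barcodes, and 233.2, 174.4 and 174.3 thinned. It was 154.4, 139 and 167.1 with doublets put back and 136.3, 127 and 128.8 at a mitochondrial limit of 10%.

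The alternatives without the 5 top barcodes, without cluster 31 and with clusters 18, 31 and 32 added to the neuron-like class were chosen after seeing the data. Subtraction of free RNA and the added clusters were not run for non-neuronal barcodes. The limits of 10% mitochondrial UMIs and 1000 genes were applied within the classes, without clustering again.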
